A study of Mus musculus with 2 samples.

Results

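The checkpoint ligands followed here are 10 mouse surface and secreted proteins that set how strongly an immune cell acts on the cell it touches. They are Cd274, Pdcd1lg2, Cd80, Cd86, Lgals9, Vsir, Pvr, Nectin2, Cd47 and Sirpa. Members were chosen by symbol alone, and all 10 are among the 33696 genes counted in both libraries. Single-cell RNA was counted with the 10x Chromium 3' v3.1 chemistry in tumours of LLC, the mouse Lewis lung carcinoma line. One library came from wild-type mice (WT) and 1 from Dusp2−/− mice (KO), which lack the dual-specificity phosphatase Dusp2 in the host. The labels call both samples tumour-infiltrating lymphocytes from tumours, and give neither age, time, number of animals nor the deleted part of the gene. The molecule is given as total RNA for WT and as polyA RNA for KO. Every difference between WT and KO below is a difference between 1 library and 1 library, with no replicate check. Genotype, animal, tumour and library preparation cannot be told apart.

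PD-L1 (Cd274) and PD-L2 (Pdcd1lg2) bind PD-1 on T cells and restrain their activation. Cd80 and Cd86 give the CD28 signal that a T cell needs beside its antigen, and the inhibitory receptor CTLA-4 competes for them. Cd80 can also bind PD-L1 on the same cell. Galectin-9 (Lgals9) is a secreted lectin described as a TIM-3 ligand, and VISTA (Vsir) is an inhibitory B7-like protein of myeloid and T cells. Pvr (CD155) and Nectin2 (CD112) bind the inhibitory receptor TIGIT and the activating receptor CD226. Cd47 is a signal against being eaten that Sirpa reads on macrophages. Interferon gamma is a known inducer of Cd274 through IRF1, and interleukin 4 of Pdcd1lg2 through STAT6.

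All 10 genes are protein-coding and their identifiers match GENCODE M21 on mm10. Cd274 lies on chromosome 19 at chr19:29367455-29388095 on the plus strand. Pdcd1lg2 follows it on the same strand at chr19:29410919-29471161, 22.8 kb further on. Pvr at chr7:19903578-19921160 and Nectin2 at chr7:19716644-19750483 are also neighbours, both on the minus strand and 153 kb apart. Cd80 (chr16:38455561-38496335, plus), Cd86 (chr16:36603869-36666081, minus) and Cd47 (chr16:49800533-49915010, plus) share chromosome 16 at larger distances. Lgals9 is at chr11:78962974-78984946 on the minus strand, Vsir at chr10:60346851-60372684 on the plus strand and Sirpa at chr2:129592835-129632228 on the plus strand.

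Promoters are shown for 3 members because Cd274, Pdcd1lg2 and Cd80 were high together in mature dendritic cells but differed in how they went with Cxcl9, a gene induced by interferon gamma. Each sequence is the 250 bases before the RefSeq start site in GRCm38.p6, 5′ to 3′ on the gene's strand. Their positions are chr19:29367188-29367437 for Cd274, chr19:29410669-29410918 for Pdcd1lg2 and chr16:38458683-38458932 for Cd80, all on the plus strand. Capitals mark matches to the motifs searched on both strands.
Cd274: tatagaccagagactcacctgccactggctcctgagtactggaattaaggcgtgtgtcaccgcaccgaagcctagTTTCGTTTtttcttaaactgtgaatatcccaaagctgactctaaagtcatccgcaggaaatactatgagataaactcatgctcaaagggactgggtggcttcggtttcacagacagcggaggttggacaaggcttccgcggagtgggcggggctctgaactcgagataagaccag
Pdcd1lg2: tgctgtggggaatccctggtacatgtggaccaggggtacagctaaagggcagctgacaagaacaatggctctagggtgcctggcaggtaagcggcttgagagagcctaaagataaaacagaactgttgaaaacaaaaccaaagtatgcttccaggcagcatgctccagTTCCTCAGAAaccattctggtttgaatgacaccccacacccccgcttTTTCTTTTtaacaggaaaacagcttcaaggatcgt
Cd80: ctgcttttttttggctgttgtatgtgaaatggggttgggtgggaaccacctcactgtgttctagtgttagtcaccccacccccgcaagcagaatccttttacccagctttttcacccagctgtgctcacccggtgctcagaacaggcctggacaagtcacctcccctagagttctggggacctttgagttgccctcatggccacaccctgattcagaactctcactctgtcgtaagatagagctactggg
Capitals in Cd274 are TTTCGTTT, from 175 to 168 bases before the start site, the reverse complement of the IRF motif AANNGAAA. Capitals in Pdcd1lg2 are TTCCTCAGAA, 82 to 73 bases before the start, which matches the STAT6 spacing TTCNNNNGAA, and TTTCTTTT, 35 to 28 bases before it, another match to the IRF motif. The Cd80 window holds no match to either motif. Among 32851 promoters of the same length 21.3% hold the IRF letters and 5.85% the STAT6 letters, so the IRF match is a common one. Promoter entries were found for 7 members. Lgals9 had a pair of IRF matches, and Cd47, Nectin2 and Vsir had neither the IRF nor the STAT6 motif. The STAT motif TTCNNNGAA, also searched, is in 7.02% of all promoters and matched none of the member promoters. A match describes letters and is not shown to be a bound site. A link between these matches and Cxcl9 was not tested.

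The WT library holds 9890 barcodes with a median of 8496 UMIs (unique molecular identifiers, 1 per captured transcript) and the KO library 12744 with a median of 4754. The libraries share 31 barcodes. Kept cells (9765 WT, 12636 KO) were assigned to classes by raw UMIs of marker genes, which placed 78.7% of WT and 73.2% of KO cells, while 2.10% and 4.87% met gates of more than 1 lineage and were left out. Against the label of lymphocytes, the WT library was 29.2% macrophages, 15.8% tumour cells and 13.8% T cells. The KO library was 27.0% B cells, 18.9% T cells, 11.3% tumour cells and 8.41% macrophages. B cells numbered 11 in WT and 3412 in KO, so members of B cells are described in KO alone. Dusp2 stood at 429 CPM in WT and 7.14 CPM in KO T cells, and at 55.6 and 4.08 CPM in macrophages. Tumour cells, which come from the injected line, held it at 74.4 and 72.1 CPM. CPM is taken here over all UMIs of a class. Antibody light chain RNA of B cells (Igkc) was present outside B cells in KO. After each cell was thinned to 2000 UMIs, an Igkc UMI was in 68.0% of KO and 0.178% of WT macrophages.

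**Figure D1:**
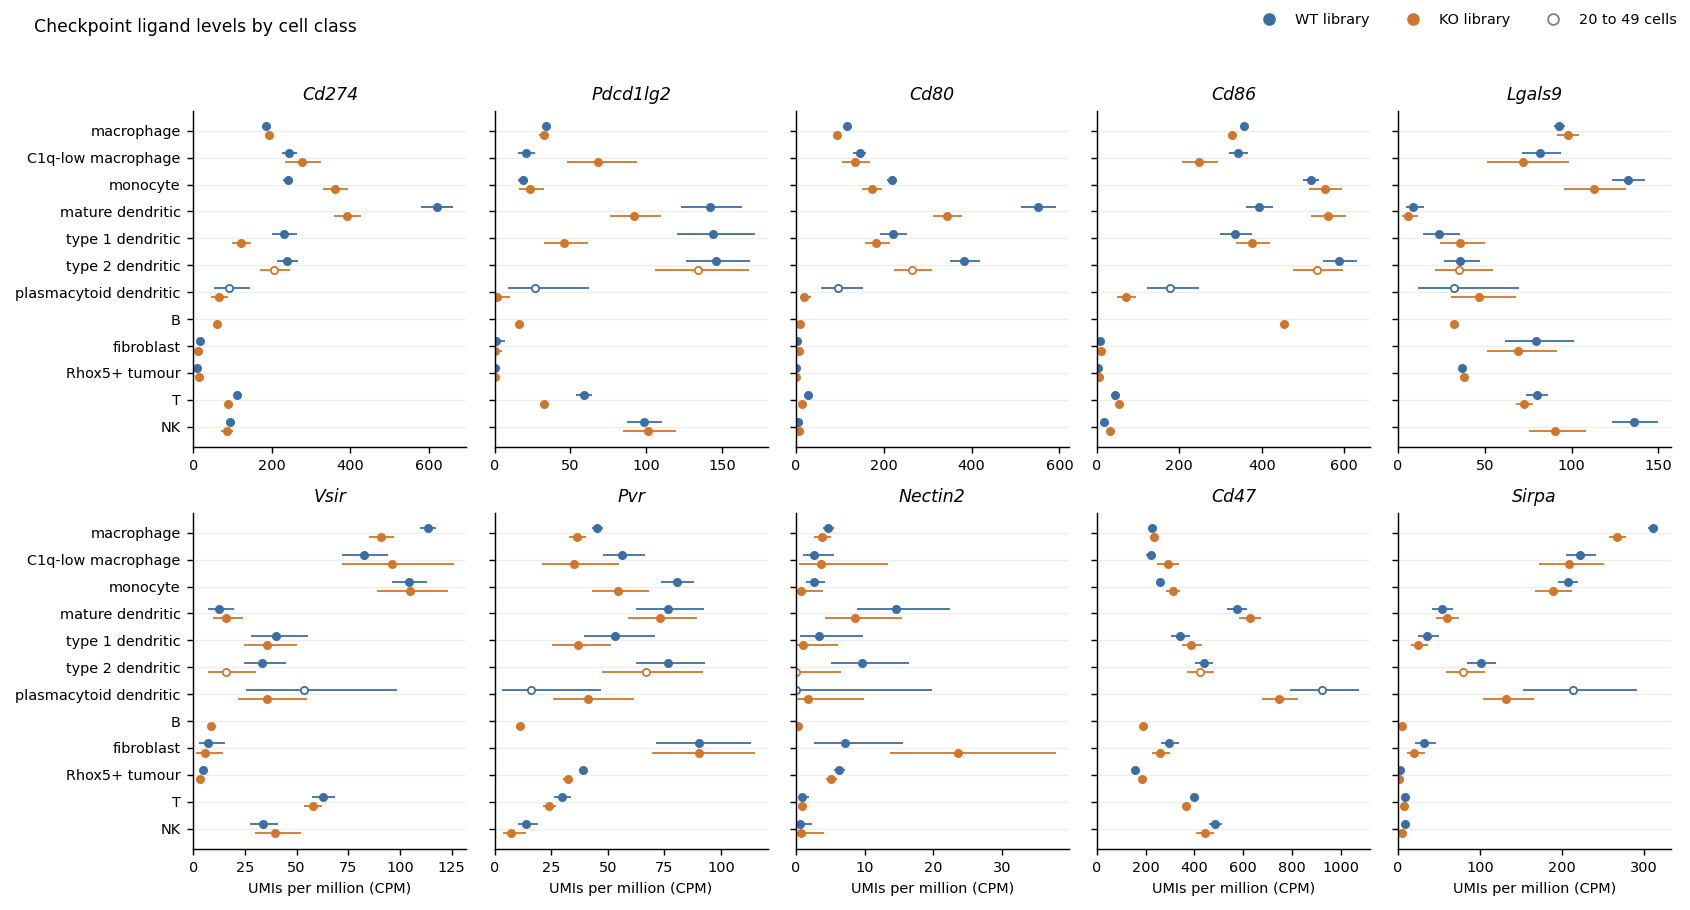
Level of each checkpoint ligand in each cell class, in CPM on a linear axis, for the WT and KO libraries, with 95% exact Poisson intervals that cover counting error only. Open circles mark classes of 20 to 49 cells; Cd274 and Cd80 have their highest values in mature dendritic cells, with KO monocytes overlapping for Cd274, and Sirpa in macrophages.

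Cd274 was highest in mature dendritic cells, the Ccr7- and Fscn1-expressing state that carries antigen to T cells. It stood there at 620 CPM in WT (95% interval 579 to 663, from 852 UMIs) and 392 CPM in KO (358 to 428, from 500 UMIs), where the interval of monocytes (362 CPM, 332 to 395) overlapped it. The WT order continued with macrophages low in C1q (244 CPM), monocytes (242 CPM), type 2 dendritic cells (238 CPM) and type 1 dendritic cells (230 CPM), whose intervals overlap one another. Macrophages with C1q followed at 184 CPM in WT and 192 CPM in KO. T cells (112 and 87.3 CPM) and NK cells (94.4 and 84.7 CPM) also carried it, and KO B cells held 59.5 CPM. Fibroblasts (17.9 and 12.5 CPM) and tumour cells (9.38 and 13.4 CPM) were lowest. The tumour cell level was 5.09% of that in macrophages in WT and 7.0% in KO. For C1qa, a macrophage complement gene, the same ratio was 0.568% and 0.267%. The part of RNA from other classes in the tumour cell level was not tested.

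Between the libraries, Cd274 differed in opposite directions by class. In monocytes it was 242 CPM in WT and 362 CPM in KO, a log2 ratio of 0.58 (0.43 to 0.73), or 0.36 when cells were thinned to 2000 UMIs before gating. After thinning, 33.8% of WT and 45.7% of KO monocytes had a UMI of it. The 6 markers of mature dendritic cells summed to 288 CPM in WT and 541 CPM in KO monocytes, with 0 of them absent in either, and their part in the Cd274 difference was not tested. In tumour cells it was also higher in KO, with a log2 ratio of 0.52 (0.32 to 0.72). In mature dendritic cells it was lower in KO, with a log2 ratio of -0.66 (-0.82 to -0.50), and 69.4% of thinned WT cells against 47.7% of KO cells had a UMI. Type 1 dendritic cells, which present antigen to CD8 T cells, held 230 CPM in WT and 121 CPM in KO (log2 -0.92, -1.27 to -0.58). The 6 markers of mature dendritic cells summed to 806 CPM in the WT and 329 CPM in the KO type 1 gate, and the 6 of plasmacytoid dendritic cells to 342 and 1414 CPM. Their part in the lower KO level was not tested. In macrophages with C1q, the class with the most Cd274 UMIs in both libraries, the levels differed by a log2 ratio of 0.06, with an interval of -0.02 to 0.13 that holds 0, and by 0.19 when thinned before gating.

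The KO mature dendritic gate did not hold the same mix of cells as the WT gate. Cst3, cystatin C, a gene that conventional dendritic cells express highly, had a median of 196 UMIs per 10000 in WT cells of this gate and 57.6 in KO. Cells with at least 60 Cst3 UMIs per 10000 were 137 of 155 in WT and 83 of 171 in KO. Among those cells Cd274 was 665 CPM in WT and 499 CPM in KO (log2 -0.42, -0.61 to -0.22). B cell UMIs were also in the KO gate: the 6 B cell markers summed to 0 CPM in WT and 78.4 CPM in KO, and 11 KO cells (6.43%) held at least 2 UMIs of the B gate genes or 5 of Jchain and Mzb1. The part of B cell RNA in the dendritic results was not tested beyond leaving out those cells, which gave -0.58.

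**Figure D2:**
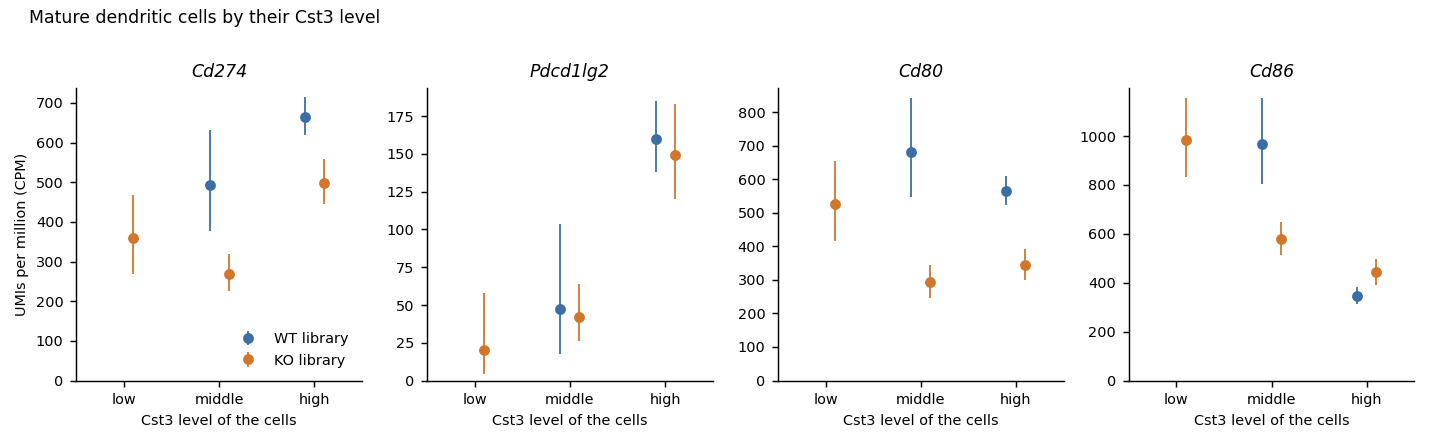
CPM of members in mature dendritic cells by the level of Cst3, for WT and KO, with 95% exact Poisson intervals; groups under 10 cells are not drawn. In cells high in Cst3, Cd274 and Cd80 are lower in KO and Cd86 is higher, while the Pdcd1lg2 intervals overlap.

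Pdcd1lg2 had a narrower range of classes than Cd274. In WT it stood at 146 CPM in type 2, 144 CPM in type 1 and 142 CPM in mature dendritic cells, with overlapping intervals. NK cells, which had been set as the background for this gene, held 98.4 CPM in WT and 101 CPM in KO. That is about 3 times the macrophage level of 33.8 and 32.5 CPM, so they do not serve as a background here. T cells held 59.1 and 32.8 CPM. Tumour cells, at 0.521 and 0.437 CPM, had 22 and 14 UMIs in all. In type 1 dendritic cells the level was 144 CPM in WT (130 UMIs) and 45.6 CPM in KO (41 UMIs), a log2 ratio of -1.66 (-2.21 to -1.15), and the thinned share of cells with a UMI was 23.6% and 3.12%. The gate had 55 WT and 65 KO cells, of which 10 KO cells (15.4%) held B or plasma cell UMIs, and without those the ratio was -1.53. As given for Cd274, the mature dendritic marker sum in this gate was lower in KO and the plasmacytoid sum higher. Their part in the Pdcd1lg2 difference was not tested. In mature dendritic cells the log2 ratio was -0.63 (-0.97 to -0.29) over the whole gate, -0.10 (-0.48 to 0.26) among cells high in Cst3 and 0.00 when cells were thinned before gating. T cells gave -0.85 (-1.04 to -0.65). In macrophages low in C1q the ratio was 1.73 (1.09 to 2.36), from 20.6 and 68.3 CPM, but 1 KO cell held 14 of the 37 UMIs.

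Cd80 and Cd86, the CD28 ligands, were both carried by dendritic cells, monocytes and macrophages, but their order across the classes differed. Cd80 was highest in mature dendritic cells at 551 CPM in WT and 345 CPM in KO, followed in WT by type 2 dendritic cells (384 CPM), type 1 dendritic cells (221 CPM), monocytes (219 CPM) and macrophages (116 CPM). NK cells held 6.05 and 6.74 CPM, with a UMI in 0.624% of thinned WT and 0 of 181 KO cells. Tumour cells were lower still, at 1.30 and 1.12 CPM. KO B cells held 10.9 CPM. Cd86 had its highest level in WT type 2 dendritic cells at 588 CPM and WT monocytes at 519 CPM, then 393 CPM in mature dendritic cells, 357 CPM in macrophages and 335 CPM in type 1 dendritic cells. KO B cells carried Cd86 at 454 CPM, and 55.4% of thinned KO B cells had a UMI of it against 6.63% of KO NK cells. The median depth was 4581.5 UMIs in KO B cells and 4845 in KO NK cells.

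Cd80 was lower in KO in each myeloid class compared. Macrophages held 116 and 92.9 CPM (log2 -0.32, -0.42 to -0.21), monocytes 219 and 173 CPM (-0.34, -0.54 to -0.14) and mature dendritic cells 551 and 345 CPM (-0.68, -0.85 to -0.50). Type 1 dendritic cells gave -0.27 with an interval of -0.57 to 0.04, and macrophages low in C1q gave -0.11 (-0.49 to 0.26). Both of the last intervals hold 0. Among mature dendritic cells high in Cst3 the Cd80 ratio was -0.72 (-0.94 to -0.49), as large as over the whole gate. T cells, which carry little Cd80, held 27.3 and 15.4 CPM.

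Cd86 did not follow Cd80. It was 357 CPM in WT and 328 CPM in KO macrophages (log2 -0.12, -0.18 to -0.07, or -0.05 without the cells of highest doublet score), and 519 and 553 CPM in monocytes, where the interval (-0.02 to 0.21) holds 0. In mature dendritic cells it was higher in KO, at 393 and 560 CPM (log2 0.51, 0.35 to 0.68). One KO cell held 71 of the 715 UMIs, and the thinned share of cells with a UMI was 46.9% in WT and 43.6% in KO. As a mean of per-cell CPM the ratio was 0.16. The ratio of summed UMIs was 0.35 (0.12 to 0.57) among cells high in Cst3 and 0.60 without the cells that held B or plasma cell UMIs. Cd86 was also higher in KO in T cells (44.0 and 54.6 CPM), NK cells (18.5 and 31.5 CPM, on 55 and 42 UMIs) and tumour cells (3.60 and 5.24 CPM). In KO tumour cells Cd86 stood at 1.15% of its level in KO B cells and Igkc at 1.06%. Without the cells of highest Scrublet doublet score, 1.31% of WT and 10.1% of KO cells, the log2 ratio in tumour cells was 0.00 and in T cells 0.07. Scrublet's own threshold called 0 KO cells, so the KO cells were taken from the top of the score. Without tumour cells that held B or plasma cell UMIs the ratio was 0.36 (0.01 to 0.71).

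Lgals9 was spread over more lineages than the B7 family members. In WT it was 136 CPM in NK cells, 133 CPM in monocytes, 93.1 CPM in macrophages, 82.0 CPM in macrophages low in C1q, 79.9 CPM in T cells and 79.8 CPM in fibroblasts. Tumour cells held 36.7 CPM, and mature dendritic cells were lowest at 8.73 CPM (12 UMIs). KO levels were 97.7 CPM in macrophages, 38.1 CPM in tumour cells and 90.7 CPM in NK cells. Only the NK ratio had an interval without 0 among the classes compared (log2 -0.59, -0.89 to -0.29), and it took the opposite sign, 0.16, when cells were thinned before gating.

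Vsir was a macrophage and monocyte transcript, at 114 CPM in WT and 90.8 CPM in KO macrophages and 104 and 105 CPM in monocytes. In monocytes a UMI was in 20.4% (17.4 to 23.6) of thinned WT cells and 11.4% (7.21 to 16.9) of thinned KO cells, and the log2 ratio was 0.01 (-0.26 to 0.27), or -1.14 on 65 UMIs when cells were thinned before gating. T cells held 62.7 and 57.7 CPM, and mature dendritic cells only 12.4 and 15.7 CPM. The macrophage ratio was -0.32 (-0.43 to -0.22). Tumour cells, taken as the background for Vsir, held 4.88 and 3.21 CPM. KO B cells held 8.66 CPM.

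Pvr and Nectin2, the ligands of TIGIT and CD226, were found in fibroblasts and tumour cells as well as in myeloid cells. Pvr was highest in fibroblasts at 90.5 CPM in WT and 90.2 CPM in KO, a log2 ratio of 0.00 with an interval of -0.50 to 0.49. Monocytes (80.6 CPM), type 2 (76.5 CPM) and mature dendritic cells (76.4 CPM) had intervals overlapping that of fibroblasts in WT. Tumour cells held 39.1 and 32.2 CPM (log2 -0.28, -0.39 to -0.17), macrophages 45.4 and 36.4 CPM (-0.32, -0.49 to -0.15) and monocytes 80.6 and 54.6 CPM (-0.56, -0.93 to -0.21). NK cells held 14.1 and 7.49 CPM, and KO B cells 11.4 CPM.

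Nectin2 was sparse in every class. Its highest WT level was 14.6 CPM in mature dendritic cells (20 UMIs), and tumour cells held 6.33 and 5.15 CPM (267 and 165 UMIs). Fibroblasts had 6 UMIs in WT and 17 in KO, 7.14 and 23.6 CPM, a log2 ratio of 1.72 with a wide interval of 0.31 to 3.36. Monocytes had 15 UMIs in WT and 1 in KO. NK cells, the background, had 2 and 1.

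Cd47 was the most evenly spread of the members with high levels. Among classes of at least 50 cells it ran in WT from 157 CPM in tumour cells to 574 CPM in mature dendritic cells. In KO it ran from 184 CPM (tumour cells) to 748 CPM (plasmacytoid dendritic cells). The 22 WT plasmacytoid dendritic cells, too few for that range, held 173 Cd47 UMIs among 186899, against 419 among 559901 in KO. NK cells (486 and 444 CPM) and T cells (399 and 366 CPM) were above macrophages (228 and 236 CPM). Cd47 was higher in KO tumour cells, 157 and 184 CPM (log2 0.23, 0.18 to 0.28), in monocytes (0.25, 0.10 to 0.41) and in macrophages low in C1q (0.39, 0.13 to 0.65). Macrophages with C1q gave 0.05 (-0.01 to 0.12).

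Sirpa, the receptor of Cd47, was mostly a macrophage and monocyte transcript. Macrophages held 311 CPM in WT and 268 CPM in KO (log2 -0.22, -0.28 to -0.15), macrophages low in C1q 222 and 209 CPM and monocytes 207 and 189 CPM. Plasmacytoid dendritic cells held 132 CPM (104 to 166) in KO, and in WT 40 of their 186899 UMIs, from only 22 cells. Type 2 dendritic cells held 101 CPM in WT and mature dendritic cells 53.1 and 59.6 CPM. NK cells (9.07 and 5.24 CPM), T cells (8.40 and 7.47 CPM), KO B cells (4.26 CPM) and tumour cells (2.44 and 1.5 CPM) were lowest. The tumour cell level was 0.778% of that in macrophages in WT and 0.559% in KO, beside 0.568% and 0.267% for C1qa and 0.911% and 0.547% for Lyz2. The part of macrophage RNA in it was not tested. The log2 ratio in tumour cells was -0.70, and 0.78 when cells were thinned before gating.

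Described as a list in macrophages, 3 members were higher and 7 lower in KO, and 0 of 10 passed a 2-fold difference in either direction. Over all 12260 genes with at least 50 UMIs in macrophages, 1.64% were 2-fold higher and 1.25% 2-fold lower. The median log2 ratio of the members was -0.17, beside -0.03 over all those genes. Monocytes had 5 members on either side, and the median was -0.06 beside -0.04. The member past 2-fold lower there was Nectin2 on 16 UMIs, against 3.13% of all genes, and no member was 2-fold higher (1.27% of all genes). Of the 202 KO monocytes, 1 cell held 3026 UMIs of the neutrophil gene S100a8, and without it the Cd274 ratio was 0.60. Igkc stood at 6505 CPM in KO monocytes, and 7 of them (3.47%) held B or plasma cell UMIs. Without those 7 cells the Cd274 ratio was 0.57.

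In mature dendritic cells KO exceeded WT for 4 members and fell short for 6, the median being -0.35 beside -0.05 over all genes. None passed 2-fold, where 3.32% of all genes were 2-fold higher and 3.68% lower. Type 1 dendritic cells had 9 members with at least 10 UMIs, of which 3 were higher and 6 lower (median -0.27 beside -0.05). Pdcd1lg2 was the 1 past 2-fold lower, where 3.28% of all genes were, and none was 2-fold higher (2.37%). Over mature, type 1 and type 2 dendritic cells together 2 members were higher and 8 lower (median -0.32 beside -0.01, or -0.045 when thinned before gating). Nectin2 alone was past 2-fold lower there, on 36 and 12 UMIs, beside 2.63% of all genes, with none 2-fold higher (2.64%). Fibroblasts had 8 members with enough UMIs, 2 higher and 6 lower (median -0.20 beside -0.05). Nectin2 was 2-fold higher there (2.24% of all genes were) and none was 2-fold lower (2.74%). In tumour cells 4 were higher and 6 lower (median -0.23 beside -0.05, or 0.33 when thinned before gating), with 0 of 10 past 2-fold in either direction (1.33% higher and 2.70% lower over all genes).

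The cells that supplied each ligand differed between the libraries. Of the UMIs of Cd86 in gated cells, 69.2% came from macrophages of either kind in WT and 21.2% in KO, where B cells supplied 59.9% after 0.405% in WT. Cd274 came 58.7% from macrophages in WT and 33.2% in KO, with 20.4% from KO B cells. For Cd80 the dendritic share was 21.1% in WT and 30.8% in KO. Sirpa came from macrophages in both libraries, 85.5% and 79.1%. Tumour cells supplied 38.4% and 45.1% of Pvr UMIs and 54.7% and 64.5% of Nectin2 UMIs. Because the numbers of cells of each class differ between the libraries, these shares follow cell numbers as well as RNA per cell.

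**Figure D3:**
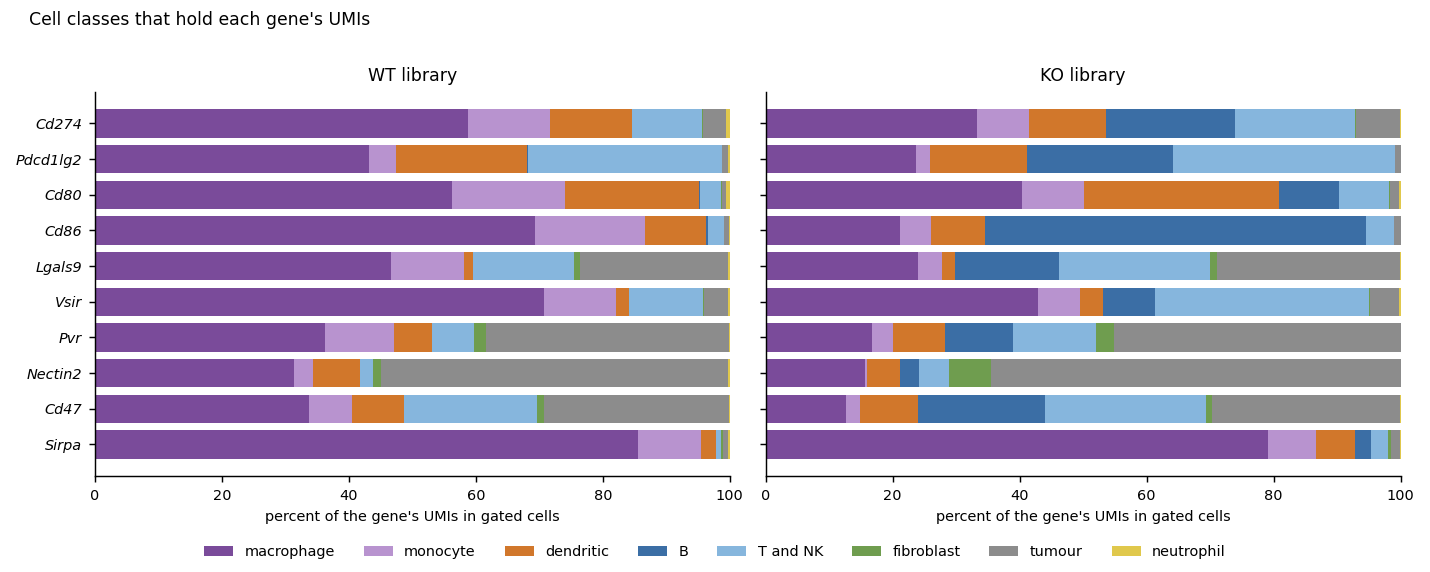
Percent of each member's UMIs in gated cells that came from each group of classes, as stacked bars for WT and KO. B cells supply 59.9% of Cd86 UMIs in KO and 0.405% in WT, and tumour cells supply most Nectin2 UMIs in both.

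Cxcl9, a chemokine that interferon gamma induces, marked the macrophages with more PD-1 ligand RNA. A Cxcl9 UMI was found, after thinning each cell to 2000 UMIs, in 31.6% of WT macrophages and 38.5% of KO macrophages. Cd274 was in 31.8% of WT macrophages with Cxcl9 and 25.8% of those without, and in KO in 34.5% and 25.9%. Among WT macrophages the log2 ratio of its UMIs, with over without, came to 0.45 (0.27 to 0.64), and among KO macrophages to 0.49 (0.21 to 0.77). Pdcd1lg2 showed a larger ratio, 1.40 (0.94 to 1.87) in WT and 1.28 (0.51 to 2.07) in KO. Cd86 did not, at -0.03 (-0.17 to 0.10) and -0.11 (-0.34 to 0.11), and Cd80 gave -0.36 (interval -0.62 to -0.11) in WT beside 0.03 (interval -0.43 to 0.48) in KO. Lgals9, whose promoter also holds IRF matches, gave 0.03 (-0.24 to 0.29) in WT and 0.12 (-0.29 to 0.53) in KO. Cells of 1 library are not replicates, so these are descriptions of each library.

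**Figure D4:**
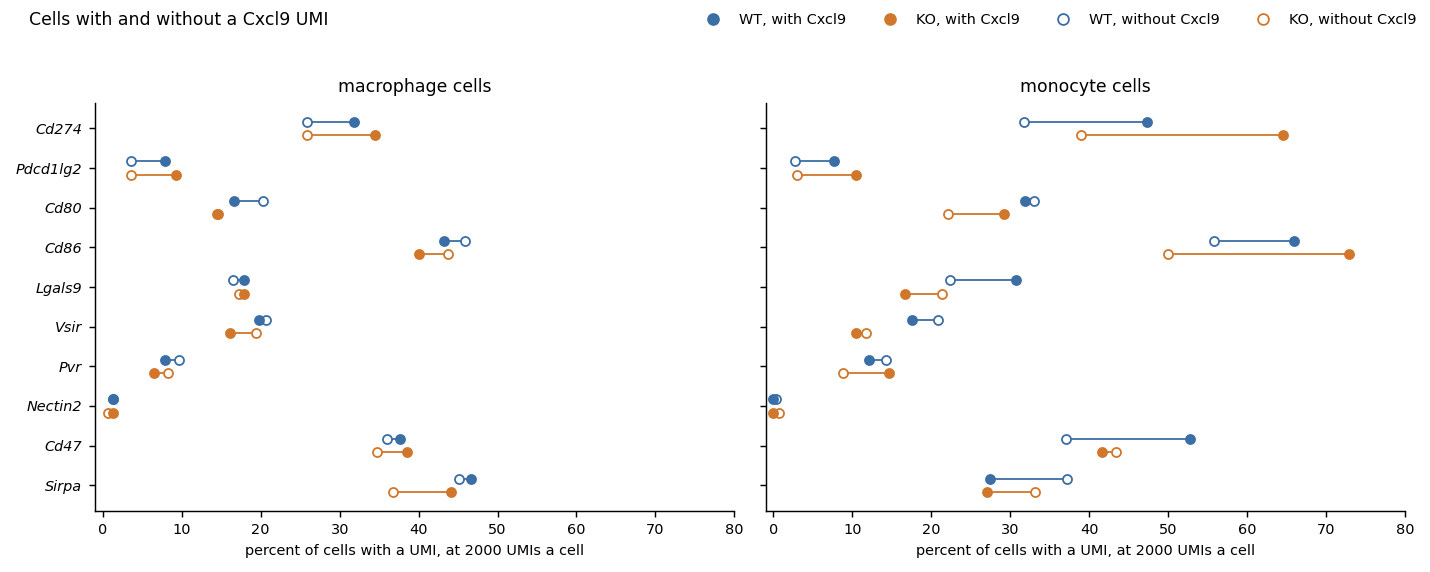
Percent of macrophages and of monocytes with a UMI of each member, in cells thinned to 2000 UMIs, for WT and KO. Filled circles are cells with a Cxcl9 UMI and open circles cells without one, and no intervals are drawn. In macrophages of both libraries the Cd274 and Pdcd1lg2 shares are higher in cells with Cxcl9.

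In monocytes Cxcl9 was in 13.5% of WT and 26.1% of KO cells after thinning. Cd274 was in 47.3% of WT monocytes with Cxcl9 and 31.7% of those without, a UMI ratio of 0.70 (0.30 to 1.08), and in KO in 64.6% and 39.0%, a ratio of 1.32 (0.81 to 1.82). Cd86 went with Cxcl9 in monocytes, at 0.42 (0.12 to 0.70) and 0.94 (0.50 to 1.38). Lgals9 gave 0.65 (0.10 to 1.16) in WT and -0.78 (-2.09 to 0.34) in KO monocytes. In dendritic cells Cd86 gave 0.64 in both libraries, and the Cd274 intervals held 0. Within macrophages of 1 Cxcl9 state the intervals of the KO to WT ratio of Cd274 held 0. The ratio was 0.15 (-0.10 to 0.40) with Cxcl9 and 0.12 (-0.11 to 0.33) without. For Cd80 it was -0.21 (-0.63 to 0.20) with and -0.60 (-0.91 to -0.30) without.

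Arg1, arginase 1, an enzyme of suppressive macrophages, was in 30.9% of WT and 32.5% of KO macrophages. Cd86 was lower in WT cells with Arg1 (log2 -0.26, -0.40 to -0.12) and Cd274 also (-0.22, -0.42 to -0.02). In KO the corresponding values were -0.18 (-0.42 to 0.06) and 0.04 (-0.26 to 0.34), with intervals that hold 0. Sirpa gave -0.03 in WT and -0.37 (-0.65 to -0.10) in KO. Among macrophages with Arg1 the KO to WT ratio was 0.35 (0.05 to 0.64) for Cd274, 0.79 (0.04 to 1.51) for Pdcd1lg2 on 42 and 28 UMIs, and -0.50 (-0.77 to -0.24) for Sirpa. Without Arg1 the Cd274 ratio was 0.09 (-0.11 to 0.29) and that of Pdcd1lg2 -0.30 (-0.89 to 0.25).

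Single cells carried both PD-L1 and its partner in cis, Cd80, most often among mature dendritic cells. After thinning, 67 of 147 WT cells (45.6%) had UMIs of both, where the product of the separate shares is 41.5%, and 31 of 149 KO cells (20.8%, product 18.5%). In macrophages the share was 5.20% and 4.75%, and in monocytes 10.9% and 11.4%. Cd80 and Cd86 were together in 10.6% of WT macrophages (product 8.61%) and 6.21% of KO macrophages (product 6.15%). Cd47 and Sirpa were together in 16.1% of WT and 14.6% of KO macrophages, near the products of 16.6% and 14.3%. In tumour cells at most 2 cells per library held any 1 of these pairs at this depth.

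The receptors of these ligands were read in T and NK cells from a list of 10 genes. In T cells 9 were measured and 9 of 9 were lower in KO, beside 60.9% of all 11328 genes with at least 50 UMIs there. Pdcd1, which encodes PD-1, stood at 310 CPM in WT and 84.3 CPM in KO (log2 -1.88, -1.99 to -1.77). Cd226, the activating receptor for Pvr, was 102 and 51.1 CPM (-0.999), and Tigit 30.7 and 18.8 CPM (-0.71). Ctla4 (528 and 411 CPM) and Cd28 (224 and 181 CPM), which share Cd80 and Cd86, differed less. In NK cells 5 of 8 were higher and 3 lower (43.2% of all genes were higher), with Havcr2 (TIM-3) at 3.36 and 11.2 CPM on 10 and 15 UMIs (log2 1.74, 0.49 to 3.06). T cells as a class were not split, so a different mix of T cell states and a different level per cell cannot be told apart.

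Other ligands, a list of 22 genes of which 21 are in the files, gave no common direction. In macrophages 8 of 18 measured were higher and 10 lower, in monocytes 10 of 16 higher, in dendritic cells 8 of 17 higher, in fibroblasts 7 of 11 and in tumour cells 7 of 17. Over all genes the shares lower in KO in these classes were 54.0%, 55.3%, 51.0%, 55.9% and 56.5%. Thbs1 (thrombospondin 1, another Cd47 ligand) was 255 CPM in WT and 21.2 CPM in KO mature dendritic cells (log2 -3.59, -4.22 to -3.03). Among cells high in Cst3 it was 227 and 33.7 CPM (-2.75). In tumour cells it was 25.3 and 11.1 CPM (-1.19, -1.36 to -1.01). Macrophages held Thbs1 at 1901 and 1302 CPM and monocytes at 4696 and 3431 CPM. C1qa was 17.4 and 7.93 CPM in tumour cells, and the 9 macrophage markers summed to 182 and 94.8 CPM in mature dendritic cells. The part of macrophage and monocyte RNA in these Thbs1 values was not tested. Icosl, the ICOS ligand, was 20.4 and 72.1 CPM in mature dendritic cells (1.82, 1.20 to 2.49) and 9.32 and 38.5 CPM among those high in Cst3. Tnfsf4 (OX40 ligand) was 2.29 and 0.797 CPM in macrophages (-1.52) and Nectin3, a partner of the nectins, 1.35 and 3.59 CPM (1.41). In fibroblasts Cd40 (4 and 13 UMIs, log2 1.92) and Cd200 (12 and 1 UMIs, -3.36) passed 2-fold with intervals that leave out 0. Of the 11 measured there, 2 were 2-fold higher and 1 was 2-fold lower, beside 2.24% and 2.74% of all genes. In tumour cells Nectin4 had 17 and 4 UMIs (-1.69) and Cd24a 10 and 89 UMIs (0.237 and 2.78 CPM, 3.55). KO B cells held Cd24a at 327 CPM. In tumour cells Igkc was 0.142 and 329 CPM, and the 6 B cell markers summed to 10.1 and 28.1 CPM. Without the tumour cells that held B or plasma cell UMIs (2.21% of WT and 9.43% of KO) Cd24a had 9 and 65 UMIs (3.34, 2.33 to 4.54). The part of B cell RNA in the Cd24a difference was not tested beyond leaving out those cells.

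The 13 genes listed as regulators of PD-L1 were measured in all classes compared. In macrophages 4 were higher and 9 lower, in monocytes 4 and 9, in dendritic cells 1 and 12, in fibroblasts 6 and 7 and in tumour cells 4 and 9. Between 51.0% and 56.5% of all genes were lower in KO in these classes. In monocytes, where Cd274 was higher in KO, Irf1 was 207 and 259 CPM (log2 0.33, 0.15 to 0.50), while Jak2 was 207 and 150 CPM (-0.46, -0.68 to -0.25). In tumour cells, where Cd274 was also higher in KO, Irf1 was 217 and 227 CPM (0.07, 0.02 to 0.11) and Jak2 34.5 and 23.1 CPM (-0.58, -0.71 to -0.45). In mature dendritic cells, where Cd274 was lower in KO, Irf1 was 367 and 295 CPM (-0.31, -0.51 to -0.12) and Stat3 687 and 393 CPM (-0.81, -0.97 to -0.65). Myc, a proto-oncogene, was 33.8 and 76.5 CPM in macrophages (1.18, 1.04 to 1.31) and 81.5 and 29.8 CPM in mature dendritic cells (-1.45, -2.02 to -0.91). The mature dendritic values of these regulators cover the whole gate, whose mix of cells differed between the libraries. Irf1, Stat3 and Jak2 were singled out here after their values were seen, and a link to Cd274 was not tested.

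Across 21 points, each a class of at least 50 cells in 1 library, the genes most like each member were ranked by Pearson's r of log2(CPM + 10) among 6819 genes. These r values are descriptions, since points of 1 library share depth and free RNA. Cd80 was nearest to Bcl2a1a (0.97), a survival gene of the Bcl2 family, and Cd274 to Cdc42 (0.96) and Bcl2a1d (0.94). Cd86 was nearest to Cd83 (0.96), Spi1 (0.96) and H2-Aa (0.94), Sirpa to Ftl1 (0.95) and Vsir to Pstpip1 (0.95) and Itgb2 (0.95). Pdcd1lg2 was nearest to Rgs1 (0.89), Pvr to Atrnl1 (0.90), Cd47 to Mob3a (0.88), Lgals9 to Dennd4c (0.86) and Nectin2 to Sbf2 (0.81). Between members r was 0.90 for Cd80 and Cd274, 0.88 for Cd86 and Cd80, 0.75 for Pdcd1lg2 and Cd274, 0.68 for Nectin2 and Pvr, and -0.50 for Nectin2 and Vsir.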

How the data were processed

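The authors deposited unnormalized UMI counts, 1 matrix for each 10x 3' v3.1 library. The submitters' processing notes list mm10, Cell Ranger (6.0.1) and Seurat (4.0.3, 4.0.4). Per the file headers, however, Cell Ranger 8.0.1 wrote the matrices. Neither annotation release nor strandedness is given in the sources used here. Gene positions come from GENCODE M21 and promoters from RefSeq GRCm38.p6.

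Barcodes needed 200 detected genes and no more than 20% mitochondrial UMIs. They were gated by raw UMIs of marker genes, for example at least 10 of C1qa, C1qb and C1qc for macrophages and 2 of Cd3d, Cd3e, Cd3g and Trac for T cells. Tumour cells were Rhox5- or Y-gene-positive and fibroblasts were collagen-positive, both with at most 1 Ptprc UMI. Cells meeting gates of more than 1 lineage were left out. Some gate checks went against a class: outside the genes used, Fcgr1 ranked the third for macrophages, and Irf8 was highest in NK cells rather than type 1 dendritic cells. In KO, Spp1 ranked the fifth for macrophages low in C1q (497 CPM, against 1576 CPM in NK cells), and Vcan was 453 CPM in monocytes and 459 CPM in fibroblasts.

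UMIs were summed per class and library and scaled to CPM (numpy 2.4.6, scipy 1.17.1, pandas 2.3.3), with exact Poisson intervals for levels, Clopper-Pearson for shares and exact conditional binomial intervals for ratios, all 95% and for counting error only. Ratios needed at least 50 cells per library and 10 UMIs of a member. Background genes needed 50 UMIs. For shares, splits and co-detection each cell was thinned to 2000 UMIs and shallower cells left out. Scripts were tested on simulated data. No test was made, since each genotype has a single library. Named genes are the members, listed partner genes past 2-fold whose interval leaves out 0, and the 3 genes most alike per member. Other partner genes named were singled out after their values were seen. Levels are compared within a gene, since no length scaling was made. The members and lists were chosen with earlier results of these data known. Alternatives were 9 planned and 3 added after the data were seen. The added ones left out cells with B or plasma cell UMIs, mature dendritic cells low in Cst3, or monocytes with at least 20 S100a8 and S100a9 UMIs.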

Additional observations from a re-analysis of the deposited data

Results flagged for a closer look

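For 5 members the KO to WT ratio lay above 0 in 1 or more classes and below 0 in others, with intervals that leave out 0 on each side. The share of all genes that meet this rule was not computed, so the count has no background and is not shown to be particular to these members. The difference between classes was not tested, and each value rests on 1 library per genotype. Cd274 had log2 ratios of 0.58 in monocytes and 0.51 in Rhox5-positive tumour cells, against -0.66 in mature dendritic cells, -0.92 in type 1 dendritic cells and -0.35 in T cells. Pdcd1lg2 was at 1.73 in macrophages low in C1q, against -0.63 in mature dendritic cells, -1.66 in type 1 dendritic cells and -0.85 in T cells. The first of these rests on 54 WT and 37 KO UMIs. Among mature dendritic cells high in Cst3 the Pdcd1lg2 ratio was -0.10, with an interval of -0.48 to 0.26 that holds 0. Cd86 was at 0.51 in mature dendritic cells, 0.54 in tumour cells, 0.31 in T cells and 0.77 in NK cells, against -0.12 in macrophages and -0.47 in macrophages low in C1q. Without the cells of highest doublet score the tumour cell value of Cd86 was 0.00 and the T cell value 0.07. The NK cell value, on 55 WT and 42 KO UMIs, ran from 0.07 to 1.71 over the settings. Among mature dendritic cells high in Cst3 the Cd86 value was 0.35. Nectin2 was at 1.72 in fibroblasts and -0.29 in tumour cells. Cd47 was at 0.39 in macrophages low in C1q, 0.25 in monocytes and 0.23 in tumour cells, against -0.13 in T cells.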

How the results depend on the processing

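Each ratio was recomputed under the planned and added settings, which gave 1101 values for 105 pairs of a member and a class. For the 48 pairs whose reported interval leaves out 0, 7 of 517 values took the opposite sign and 1 was exactly 0. For the 57 whose interval holds 0, 44 of 584 values took the opposite sign. In all, 1038 values stayed inside the reported interval. Thinning each cell to 2000 UMIs before gating moved the member median from -0.32 to -0.045 in dendritic cells and from -0.23 to 0.33 in tumour cells. The same setting gave 0.00 for Pdcd1lg2 in mature dendritic cells (52 UMIs), 0.16 for Lgals9 in NK cells, and 0.78 for Sirpa in Rhox5-positive and in all tumour cells (17 UMIs). The mean of per-cell CPM gave 0.17 for Sirpa in Rhox5-positive tumour cells, 0.16 in all tumour cells and -0.068 for Cd86 in dendritic cells. Totals without mitochondrial, ribosomal, haemoglobin, Ig and Malat1 UMIs gave 0.011 for Cd47 in T cells. The cause was not tested in any of these. With mature dendritic cells high in Cst3 alone, Cd86 in dendritic cells was 0.00. Scrublet's threshold called 128 WT cells (1.31%) and 0 KO cells, so 1277 KO cells (10.1%) were left out by score in that setting. No paired analysis was possible because each genotype is 1 library. No replicate could be left out for the same reason. Classes under 50 cells and members under 10 UMIs gave no ratio, and depth limits Nectin2 in every class.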
